A study of Rattus norvegicus with 415 samples.

Results

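Cd3e (ENSRNOG00000016069), Cd4 (ENSRNOG00000016294), Cd8a (ENSRNOG00000007178), Cd2 (ENSRNOG00000015821) and Lck (ENSRNOG00000009705), 5 genes that mark T cells, were followed across adipose tissue of outbred rats (Rattus norvegicus). They were picked by Ensembl identifier from a table of 18358 genes, and all 5 were present and passed the filter on low values. All samples formed 1 group: adipose tissue of rats aged 17 weeks, with no strain name, genotype, treatment or fat depot in the labels. The study used these rats for genetic mapping of metabolic traits. Each sample is called here by its title, a number and a suffix that the labels do not explain, so p-values measure the spread between samples and not necessarily between animals. Some samples shared a title number: 89 numbers stood on more than 1 sample.

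T cells recognise antigen through the T cell receptor, which signals through the CD3 chains. Cd3e encodes the epsilon chain of CD3. Cd4 and Cd8a encode the co-receptors of helper and of cytotoxic T cells, which bind MHC class II and class I. In the rat, monocytes and macrophages also carry CD4, and natural killer cells also carry CD8 alpha. Lck is the Src family kinase that sits on the tails of both co-receptors and phosphorylates the CD3 chains. Cd2 encodes an adhesion receptor of T cells and natural killer cells. Fat holds resident T cells between its adipocytes, many macrophages, and in several depots embedded lymph nodes.

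Promoters of the members are shown because 4 of the 5 genes moved together across samples. Windows from 250 bases before to 50 after each start came from RefSeq on the GRCr8 assembly and covered 4 of the 5 members, with 2 starts for Lck and none for Cd4. Motifs were searched as letters on both strands: TGTGGT for RUNX factors, AGGAAG for ETS factors, AGATAA for factors of the GATA family, CTTTGA for TCF factors and CAGCTG for E-box proteins. Capitals mark the matches, which did not overlap each other, and all sequences read 5′ to 3′ on the gene's strand. The Cd3e window lies at chr8:54211721-54212020 on the minus strand, that of Cd2 at chr2:191412610-191412909 on the minus strand, and those of Lck at chr5:147201218-147201517 for start 1 and chr5:147183601-147183900 for start 2, both on the minus strand.
Cd3e: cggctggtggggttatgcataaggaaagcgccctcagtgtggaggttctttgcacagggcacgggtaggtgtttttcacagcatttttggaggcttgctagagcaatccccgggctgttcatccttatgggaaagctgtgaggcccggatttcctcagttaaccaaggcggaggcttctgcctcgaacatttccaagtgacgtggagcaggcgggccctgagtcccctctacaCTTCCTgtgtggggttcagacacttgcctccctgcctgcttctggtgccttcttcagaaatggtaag
Cd2: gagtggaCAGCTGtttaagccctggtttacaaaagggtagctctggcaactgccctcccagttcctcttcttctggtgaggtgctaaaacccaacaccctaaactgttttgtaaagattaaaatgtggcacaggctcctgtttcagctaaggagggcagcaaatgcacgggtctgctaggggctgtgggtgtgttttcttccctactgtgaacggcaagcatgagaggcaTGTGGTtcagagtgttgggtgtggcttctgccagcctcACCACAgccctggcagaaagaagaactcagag
Lck start 1: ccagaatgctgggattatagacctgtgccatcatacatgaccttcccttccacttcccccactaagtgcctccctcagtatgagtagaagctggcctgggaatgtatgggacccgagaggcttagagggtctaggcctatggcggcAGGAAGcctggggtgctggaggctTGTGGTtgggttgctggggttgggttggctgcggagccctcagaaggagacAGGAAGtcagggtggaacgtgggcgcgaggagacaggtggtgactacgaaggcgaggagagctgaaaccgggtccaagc
Lck start 2: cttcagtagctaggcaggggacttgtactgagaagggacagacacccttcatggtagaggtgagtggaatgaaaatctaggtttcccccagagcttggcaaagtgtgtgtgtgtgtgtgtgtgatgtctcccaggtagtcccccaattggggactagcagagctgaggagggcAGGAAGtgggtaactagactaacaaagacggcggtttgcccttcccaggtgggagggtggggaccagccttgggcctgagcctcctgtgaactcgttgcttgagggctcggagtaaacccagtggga
ETS letters stood in 3 of the 5 windows, those of Cd3e and of both Lck starts, and in 34.5% of all 33469 RefSeq windows. RUNX letters stood in 2 of 5, Cd2 and Lck start 1, against 17.3% of all windows. The E-box stood in Cd2 alone, against 15.1%. GATA letters (11.6% of all windows) and TCF letters (16.1%) stood in none of the 5. The Cd8a window, at chr4:104923866-104924165 on the plus strand, held none of the motifs. A match is a description of the letters only.

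Expression was abundant for Cd4 and low for the other 4 genes. Levels are FPKM, reads scaled to the length of the gene and the depth of the sample, so that they can be compared between genes. Cd4, the helper T cell co-receptor, averaged 77.7 ± 10.005 FPKM (SD over all samples), with a lowest value of 42.1, a median of 76.7 and a highest of 116.4. Lck, the co-receptor kinase, averaged 7.75 ± 9.59 FPKM (SD) and ran from 2.38 through a median of 5.84 to 87.7. Cd8a, the cytotoxic co-receptor chain, averaged 4.63 ± 7.32 FPKM (SD) and ran from 0.411 through a median of 3.07 to 71.8. For these last genes the SD exceeded the mean, because few samples lay far above the rest. Cd2, the adhesion receptor, averaged 3.50 ± 4.78 FPKM (SD), with a median of 2.40 between 0.181 and 47.4. Cd3e, the receptor's signalling chain, averaged 2.74 ± 6.26 FPKM (SD), with a median of 1.55 and a highest value of 57.03. Cd3e was the lowest of the 5 by median and had the widest relative spread.

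The order of the medians was Cd4, Lck, Cd8a, Cd2 and Cd3e. Cd4 exceeded Lck in 99.8% of samples, and Lck exceeded Cd8a in 96.4%. Cd2 exceeded Cd3e in 86.02% of samples, by 0.43 ± 0.44 on the log2(FPKM + 1) scale (mean ± SD). Cd8a exceeded Cd2 in 70.8% of samples, by 0.23 ± 0.46. For both pairs of neighbours the mean difference was smaller than its SD between single samples, and the order was reversed in part of the samples. Cd4 stood at percentile 95.8 of all genes by mean FPKM. The other 4 stood between percentile 26.6 for Cd3e and 41.8 for Lck. In bulk tissue, more cells of a type and more RNA per cell cannot be told apart, so that none of these levels is a number of T cells.

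Depth limited the low genes most. Reads per sample ran from 2139163 to 6248214, with a median of 4602134. The median sample held 620 reads of Cd4, 57 of Lck, 19 of Cd8a, 13 of Cd2 and 11 of Cd3e. Cd3e had fewer than 10 reads in 41.7% of samples, Cd2 in 24.3% and Cd8a in 12.05%. In 1 sample, 62669_3, Cd3e had 0 reads. A count of 0 allows up to 3 reads, or 0.482 FPKM there, and the same sample had a Cd8a level of 2.43 FPKM and an Lck level of 4.41 FPKM. Over all samples, the variance of depth-scaled reads was 96.8 times the counting variance for Cd3e, 111.3 times for Lck, 72.5 times for Cd8a, 35.9 times for Cd2 and 10.2 times for Cd4. Without the 18 samples described below, these ratios were 4.52 for Cd3e, 6.51 for Lck, 6.39 for Cd8a, 4.56 for Cd2 and 8.75 for Cd4, so that Cd4 went from the smallest to the largest. At equal relative spread the ratio grows with the number of reads, so that it does not order the genes by spread. The SD on the log2(FPKM + 1) scale was then 0.17 for Cd4 and 0.38 to 0.57 for the others.

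**Figure D1:**
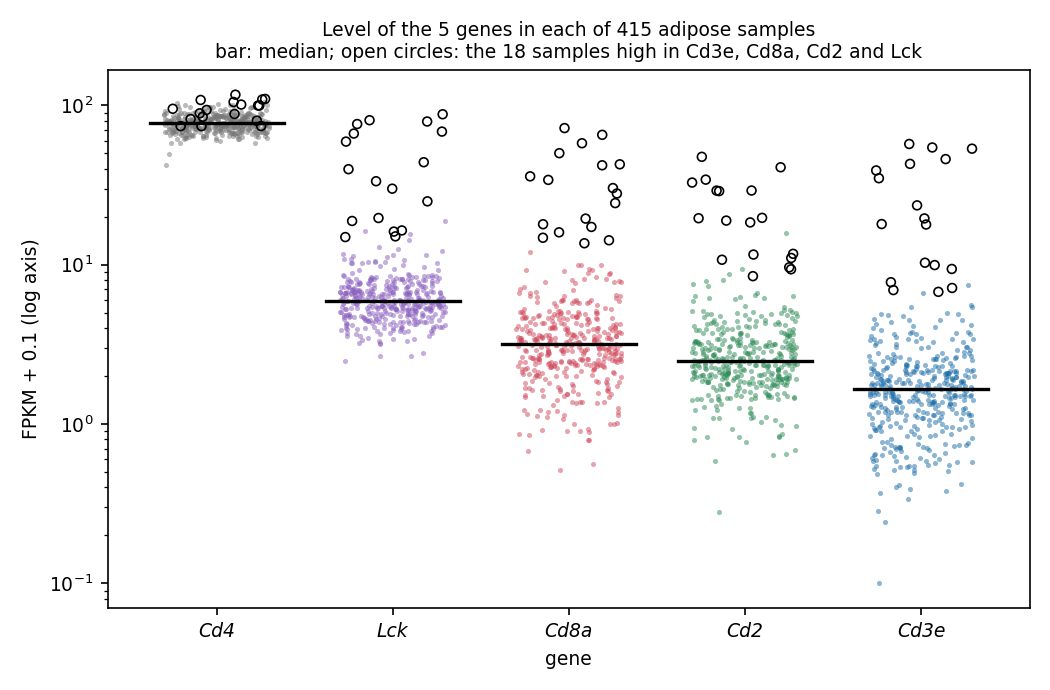
Level of each gene (FPKM + 0.1, log axis) in each sample, 1 point per sample, with the median as a bar and open circles for the 18 samples that were high in Cd3e, Cd8a, Cd2 and Lck. The 4 low genes have a long upper tail, up to 57.03 FPKM for Cd3e and 87.7 for Lck, while Cd4 stays between 42.1 and 116.4 FPKM and its open circles lie within or just above its other points.

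Cd3e, Cd8a, Cd2 and Lck had a long upper tail and Cd4 did not. The highest sample stood 36.7 times above the median for Cd3e, 23.4 times for Cd8a, 19.7 times for Cd2 and 15.01 times for Lck, but 1.52 times for Cd4. The median of the same ratio over the 16131 genes tested was 1.86. On the log2(FPKM + 1) scale, the SD was 0.83 for both Cd3e and Cd8a, 0.73 for Cd2, 0.65 for Lck and 0.18 for Cd4, against a median of 0.24 over the genes tested. A sample was called high for a gene when its log2(FPKM + 1) exceeded the gene's median by more than 3 scaled median absolute deviations (scaled to equal the SD of a normal distribution). That bound lay at 6.01 FPKM for Cd3e, 11.5 for Cd8a, 7.74 for Cd2, 14.05 for Lck and 110.7 for Cd4. By this rule 20 samples were high for Cd3e, 19 for Cd8a, 23 for Cd2, 22 for Lck and 1 for Cd4. Over the genes tested, the median was 2 high samples a gene and the 95th percentile 16.

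The same samples were high in the 4 low genes. No gene was high in 390 samples, 1 gene in 4 samples, 2 genes in 1, 3 genes in 2, 4 genes in 17 and all 5 in 1. In 18 samples, 4.34% of all, Cd3e, Cd8a, Cd2 and Lck were high together. All 20 samples high in Cd3e were also high in Cd2 and Lck, and 18 of them in Cd8a. Conversely, the samples high in Cd3e were 94.7% of those high in Cd8a, 86.96% of those high in Cd2 and 90.9% of those high in Lck. The 18 samples were picked by these values. The following describes them 1 by 1 and then by ranges and shares, with no test.

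The 7 samples highest in Cd3e lay between 34.7 and 57.03 FPKM. Sample 62562_6 had the highest Cd3e, Cd2 and Lck levels, at 57.03, 47.4 and 87.7 FPKM, beside 57.7 FPKM of Cd8a and 93.3 of Cd4. From counting error alone, its Cd3e reads gave a 95% exact Poisson interval of 51.6 to 62.8 FPKM. Sample 62734_4 had 54.2 FPKM of Cd3e, 65.1 of Cd8a, 34.03 of Cd2, 76.1 of Lck and 87.99 of Cd4. The next sample, 61645_3, held the highest Cd8a level, 71.8 FPKM, with 53.3 of Cd3e, 40.7 of Cd2, 80.4 of Lck and 73.95 of Cd4. In these samples Cd8a and Lck lay within the range that Cd4 has over all samples. Sample 62692_3 had less Cd8a (35.7 FPKM) than Cd3e (45.8), with 32.6 of Cd2, 78.95 of Lck and 88.9 of Cd4. Samples 63974_4, 62443_4 and 58041_3 completed the 7, with 42.8, 38.9 and 34.7 FPKM of Cd3e. Their Cd8a levels were 41.9, 49.9 and 42.5 FPKM, and their Cd4 levels were 79.9, 81.8 and 73.9 FPKM. None of the 7 exceeded the 95th percentile of Cd4 over all samples, 96.7 FPKM.

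Below them came 4 samples with Cd3e between 17.7 and 23.4 FPKM. Sample 64105_4 had 23.4 FPKM of Cd3e, 27.8 of Cd8a, 18.8 of Cd2, 43.8 of Lck and 99.4 of Cd4. Sample 62799_4 had 19.4 FPKM of Cd3e and 24.2 of Cd8a, with a Cd4 level of 73.9 FPKM, just under the Cd4 median. Sample 64024_3, the 1 sample high in all 5 genes, had the highest Cd4 of all samples, 116.4 FPKM, with 17.9 of Cd3e, 33.9 of Cd8a, 19.4 of Cd2 and 33.3 of Lck. Sample 63944_5 was close to it, with 109.4 FPKM of Cd4, 17.7 of Cd3e and 30.1 of Cd8a, and its Cd4 lay just below the bound. These 11 samples held the 11 highest levels of each of Cd3e, Cd8a, Cd2 and Lck.

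The last 7 samples lay at the foot of the tail, with Cd3e from 6.65 to 10.2 FPKM. They were 62338_3, 62415_3, 62919_4, 64246_5, 62312_4, 62596_3 and 58774_4, in falling order of Cd3e. Cd8a lay between 13.5 and 19.3 FPKM and Lck between 14.8 and 24.8 FPKM in them. Cd4 was 84.5 FPKM in 62338_3, 107.8 in 62415_3, 99.5 in 62919_4, 100.9 in 64246_5, 94.9 in 62312_4, 108.5 in 62596_3 and 104.7 in 58774_4. Of these Cd4 levels, 5 exceeded the 95th percentile. Counting error alone spanned the bound at the foot: sample 58774_4 had 51 Cd3e reads and an interval of 4.95 to 8.74 FPKM, around the bound of 6.01.

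**Figure D2:**
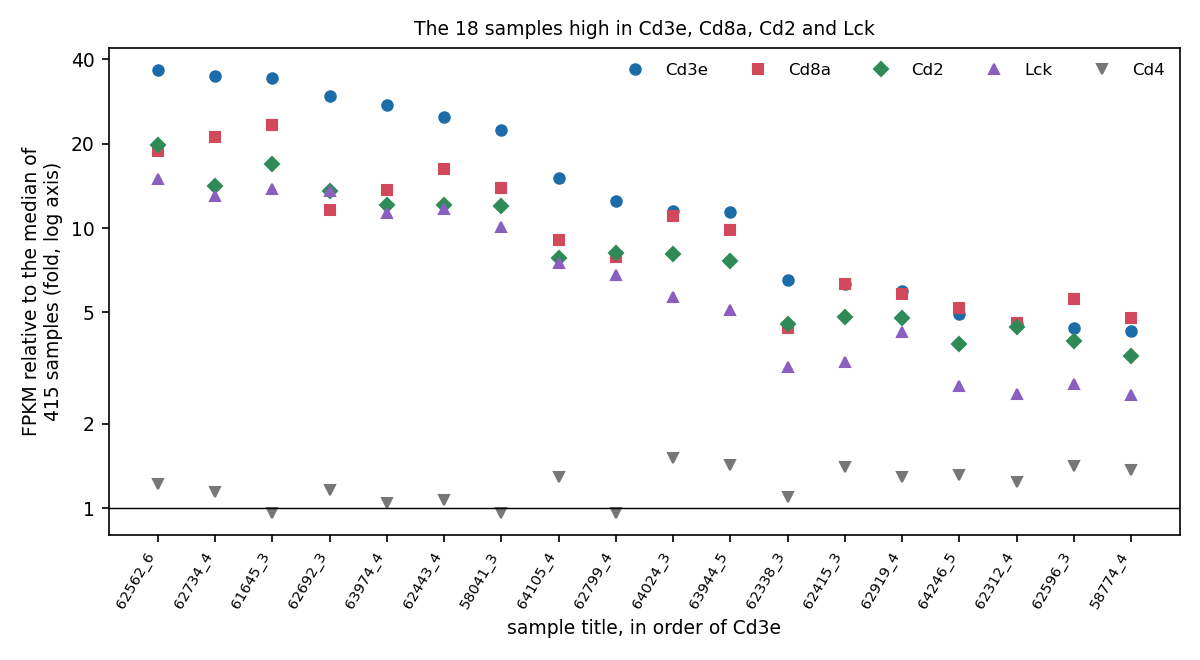
FPKM of each gene relative to its median over all samples (fold, log axis) in the 18 samples high in Cd3e, Cd8a, Cd2 and Lck, in falling order of Cd3e. Cd3e runs from 36.7 to 4.28 times its median, whereas Cd4 stays between 0.962 and 1.52 times its median at both ends of the row. An equal rise in FPKM is a smaller fold for Cd4, whose median is 76.7 FPKM against 1.55 for Cd3e.

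Cd4 did not follow the height of the other genes within the 18 samples. It lay above its median in 15 of them and above its 95th percentile in 8, and none of those 8 was among the 7 samples highest in Cd3e. Relative to the median, the 18 samples spanned 4.28 to 36.7 times for Cd3e, 4.41 to 23.4 for Cd8a, 3.49 to 19.7 for Cd2 and 2.53 to 15.01 for Lck, but 0.962 to 1.52 times for Cd4. These folds start from unlike medians, 76.7 FPKM for Cd4 and 1.55 FPKM for Cd3e. An equal rise in FPKM is therefore a far smaller fold for Cd4, and the folds do not compare rises in FPKM. They held 40.7% of the summed FPKM of Cd3e over all samples, 30.8% of that of Cd8a, 26.8% of Cd2, 24.5% of Lck and 5.21% of Cd4. The share for Cd4 is close to the 4.34% of samples that they make up. The samples were picked by high Cd3e, Cd8a, Cd2 and Lck, and Cd4 was not used. The larger folds and shares of those 4 genes therefore largely follow from the rule.

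Proportions between the genes also differed along the tail. The Cd8a to Cd3e ratio of FPKM had a median of 1.97 over the samples with Cd3e above 0, with quartiles at 1.53 and 2.70. In the 18 samples it ran from 0.779 in 62692_3 to 2.51 in 62596_3. The Lck to Cd3e ratio had a median of 3.77 over all and ran from 1.40 to 2.67 in the 18 samples, and the Cd2 to Cd3e ratio had a median of 1.54 and ran from 0.628 to 1.51. The Cd4 to Cd8a ratio, with a median of 24.6, fell to between 1.03 in 61645_3 and 7.15 in 58774_4. Where Cd3e sits in the denominator, a high Cd3e lowers the ratio, so that these are descriptions of the picked samples.

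A further 7 samples passed the bound for some of the 4 genes. Samples 64119_4 and 62655_3 were high in Cd3e (7.30 and 6.58 FPKM), Cd2 and Lck, and their Cd8a levels of 9.20 and 7.92 FPKM missed the bound. Sample 62679_3 was the 1 sample high in exactly 2 of the genes: Cd2 was 15.8 FPKM and Lck 18.7 FPKM, the highest outside the 18 samples, while Cd3e was 1.79 and Cd8a 6.21 FPKM. Cd4 was 101.7 FPKM there. The other samples were 63941_4 and 62615_3, high in Cd2 alone, 61641_3 in Cd8a alone and 63972_3 in Lck alone. The 18 samples overlapped the others in Cd3e, which reached 7.30 FPKM outside them and began at 6.65 FPKM within them, and likewise in Cd2 and Lck. In Cd8a they did not overlap, with a highest level of 11.9 FPKM outside and a lowest of 13.5 FPKM within. The rule itself asked for more than 11.5 FPKM of Cd8a. Outside the 18 samples, only 61641_3 passed that bound, so that this gap largely follows from the rule.

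Stricter rules kept a subset. With 4 scaled deviations 13 samples remained high in the 4 genes, with 5 scaled deviations 10, and with a pseudocount of 0.1 in place of 1 there were 14, all of them among the 18. High levels were found in each part of the title numbering. The samples with the lowest title numbers (57215 to 59114, 9.40% of all) held 2 of the 18, those in the middle (60213 to 63056, 55.9%) held 11, and those with the highest (63906 to 64305, 34.7%) held 5. These blocks, cut at gaps of more than 500 in the numbers, are possible batches, and they are no groups of the study. The suffix of the titles, which the labels do not explain either, was not tested. The 18 samples had 4032776 to 5301600 reads, within the range of all samples.

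Whether the high samples held lymphoid tissue was not tested. B cell, lymph node stroma, macrophage and adipocyte genes were listed for this purpose, but the table gives identifiers without symbols, so that those genes were not analysed here and the adipose label was not checked against its markers. The symbols of the 5 members came from the list of identifiers itself.

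Samples sharing a title number with a high sample were not high. Of the 18 samples, 6 had such a partner, and 0 of the 6 partners were high in any of the 5 genes. Over all samples 93.98% were high in none, so that 6 partners are too few to show a difference from that share. Sample 62562_6 had 57.03 FPKM of Cd3e and its partner 62562_5 had 0.660. The Cd3e levels were 34.7 and 2.17 FPKM in 58041_3 and 58041_6, 23.4 and 0.445 in 64105_4 and 64105_3, 17.9 and 4.38 in 64024_3 and 64024_4, 17.7 and 1.17 in 63944_5 and 63944_3, and 7.65 and 0.495 in 64246_5 and 64246_4. The partner with the highest Cd3e, 64024_4, also had the highest Cd4 of the partners, 91.98 FPKM. No pair held 2 high samples, where 4.34% of all samples were high in the 4 genes.

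**Figure D3:**
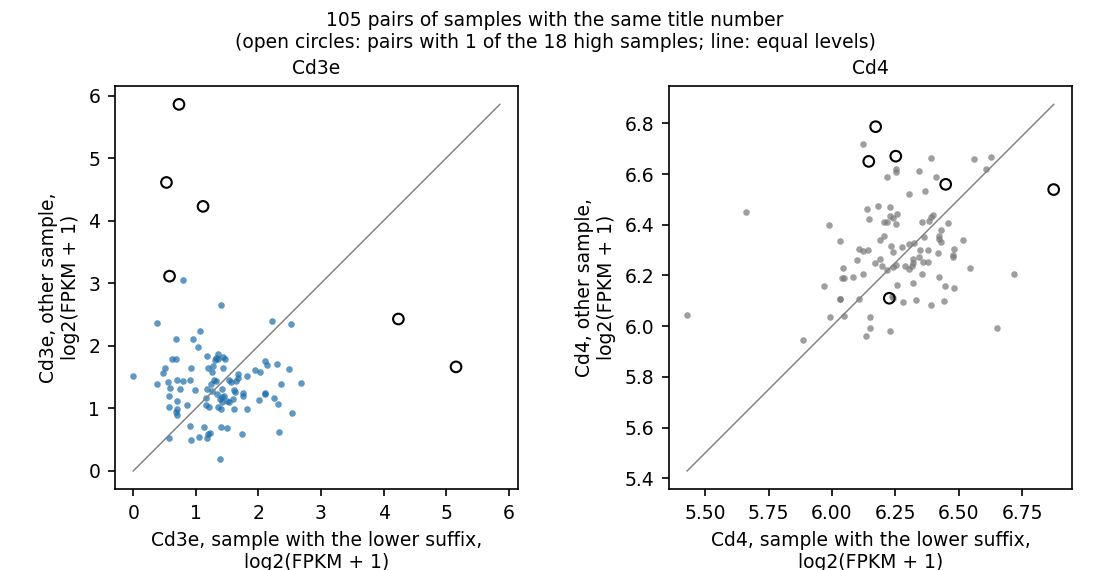
Cd3e (left) and Cd4 (right), log2(FPKM + 1), in all pairs of samples with the same title number, with the sample of lower suffix on the x axis and the other on the y axis; the line marks equal levels and open circles mark pairs that hold 1 of the 18 high samples. The 6 open circles for Cd3e lie far from the line, whereas those for Cd4 lie among or near the other pairs.

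Resemblance between samples of the same number was then measured for each gene as an intraclass correlation over all such pairs, in which 0 means no resemblance. It was 0.233 for Cd4 (p = 0.007 by 100000 permutations of the title numbers, adjusted over the 5 genes p = 0.035). It was -0.067 for Cd3e, -0.063 for Cd8a, -0.013 for Cd2 and -0.076 for Lck (adjusted permutation p = 0.777 for each). The limma F test over title numbers, fitted on all genes, called 57.5% of the 16131 genes. Among the members it called Cd4 (F = 1.58, adjusted p = 0.0262) and none of the other 4 (adjusted p from 0.457 to 0.693). Cd4 lost its call with log2 reads as a covariate (adjusted p = 0.0560), with a spline of the title number (adjusted p = 0.1001) and without sample 64024_3 (adjusted p = 0.0533), and its intraclass correlation did not pass under these settings either (0.194 to 0.206, adjusted permutation p from 0.0788 to 0.102).
Without the 18 samples, a choice made after seeing the data and in part on Lck itself, limma called 59.7% of genes. Lck then passed beside Cd4 (Lck F = 1.503, adjusted p = 0.0483). The resemblance of Lck was then 0.162 (permutation p = 0.0479, adjusted p = 0.120) and that of Cd4 0.247 (adjusted p = 0.0302). Whether the resemblance of Cd4 differs from that of the other genes was not tested.

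Levels did not pass the tests along the title number. In the limma trend over the scaled rank of the number, which called 61.3% of genes, 0 of the 5 members were called. The change from the lowest to the highest number on the log2(FPKM + 1) scale was -0.06 (SE 0.14, adjusted p = 0.729) for Cd3e, -0.05 (SE 0.03, adjusted p = 0.161) for Cd4 and 0.09 (SE 0.11, adjusted p = 0.511) for Lck. It was -0.15 (SE 0.14, adjusted p = 0.372) for Cd8a and -0.14 (SE 0.12, adjusted p = 0.311) for Cd2. None of the 5 passed at an unadjusted p of 0.05 either, the lowest being 0.114 for Cd4. Within the last block alone, where limma called 6.53% of genes, Cd4 fell by 0.18 from its lowest to its highest number (SE 0.053, limma adjusted p = 0.0238). Estimated changes there were larger for the other members, with larger SEs. They were -0.44 (SE 0.22) for Cd3e, -0.43 (SE 0.22) for Cd8a, -0.36 (SE 0.16) for Lck and -0.28 (SE 0.19) for Cd2. None of these was called (limma adjusted p from 0.167 to 0.378). The F test between the 3 blocks called 53% of genes and 0 of the 5 members, with adjusted p from 0.212 for Lck to 0.606 for Cd3e. Leaving out the 18 samples was a choice made after seeing the data, and they were picked in part by Lck itself. The SD of Lck on the log2(FPKM + 1) scale was 0.65 with them and 0.38 without. Without them Lck was called in both tests. It rose by 0.17 along the numbers (limma adjusted p = 0.0170, where 62.8% of genes were called). Between blocks F was 6.30 (limma adjusted p = 0.00524, where 55.2% were called). Both calls describe the picked subset only. The remaining members stayed uncalled there.

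Relation to depth was weak. Cd4 correlated with log2 reads per sample at r = -0.203 (adjusted permutation p = 0.0002 over 5 genes; rho = -0.143, adjusted p = 0.0164), and at r = -0.181 without the 2 samples of most extreme depth. Within the blocks r was -0.131, -0.234 and -0.167 in order of title number, of which the second passed (adjusted p = 0.002). Lck passed by rank alone (rho = 0.116, adjusted p = 0.0448; r = 0.062, adjusted p = 0.505). This rank relation did not pass with the spline of the title number removed (rho = 0.075, adjusted p = 0.319), without sample 64024_3 (adjusted p = 0.0612) or within any block (adjusted p from 0.329 to 0.499). It did pass with 1 sample per title number (rho = 0.172, adjusted permutation p = 0.0095) and without the 18 samples (rho = 0.124, adjusted permutation p = 0.0349). Cd3e, Cd8a and Cd2 did not pass, with r between 0.015 and 0.035.

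Co-variation of the members was strong among 4 genes and moderate with Cd4. All 10 pairs had a permutation p of 1e-05 for r and for rho, the smallest that 100000 resamples can give, and the same after adjustment over the 10 pairs. Cd3e and Lck, the receptor chain and the kinase that phosphorylates it, had the highest r, 0.893 (rho = 0.712). The co-receptor chain Cd8a followed Cd3e with r = 0.868 (rho = 0.716) and Lck with r = 0.863 (rho = 0.685). The adhesion receptor Cd2 had r = 0.853 with Lck (rho = 0.624), 0.848 with Cd3e (rho = 0.662) and 0.830 with Cd8a (rho = 0.642). With Cd4, r was 0.424 for Cd2 (rho = 0.368), 0.394 for Cd8a (rho = 0.345), 0.388 for Cd3e (rho = 0.359) and 0.360 for Lck (rho = 0.302). Every pair without Cd4 thus had a higher r and rho than every pair with it. Without the 2 samples farthest from the median of the first gene, r was 0.809 to 0.876 for the 6 pairs without Cd4 and 0.355 to 0.423 for the 4 pairs with it. With 1 sample for each title number, r ran from 0.829 to 0.891 and from 0.356 to 0.431.

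**Figure D4:**
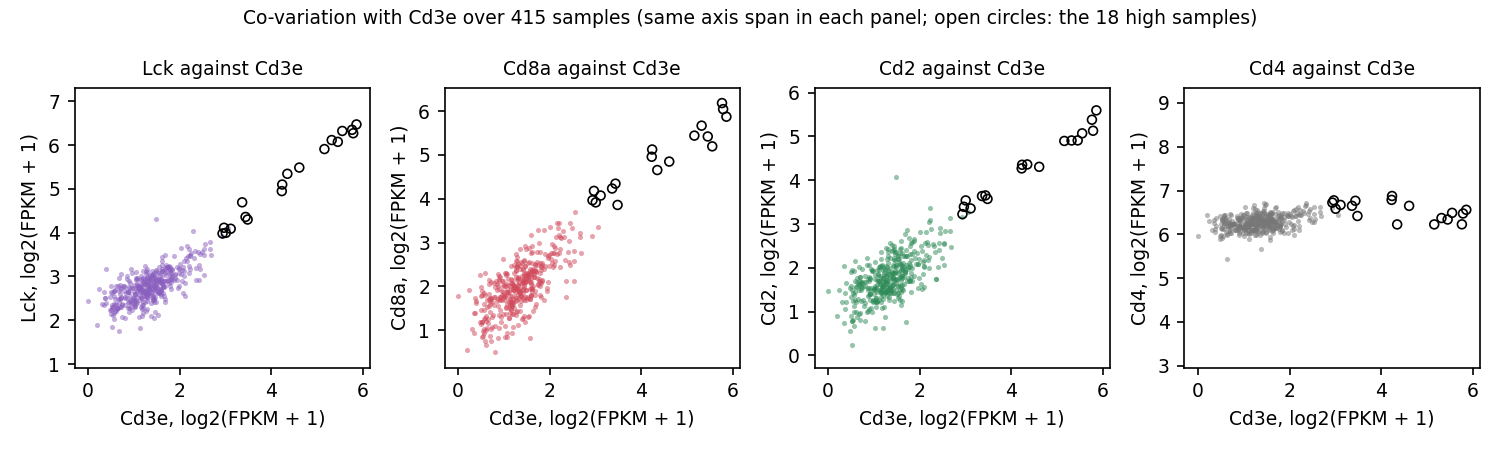
Lck, Cd8a, Cd2 and Cd4 against Cd3e, all as log2(FPKM + 1), in all samples, with the same span on the y axis of each panel and open circles for the 18 high samples. Lck, Cd8a and Cd2 rise with Cd3e through both the main cloud and the open circles (r of 0.893, 0.868 and 0.848), and Cd4 stays nearly level (r of 0.388).

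All 10 correlations were lower without the high samples and still passed. Without the 18 samples, r was 0.631 to 0.7002 for the 6 pairs without Cd4 and 0.317 to 0.383 for the 4 pairs with it (adjusted permutation p = 1e-05 for each). Leaving out these samples narrows the range of the 4 genes, which lowers r by itself. Low depth also bears on this range. Among the remaining samples, counting error made up 22.1% of the variance of depth-scaled reads for Cd3e and 21.95% for Cd2. For Cd8a it made up 15.6%, for Lck 15.4% and for Cd4 11.4%. These shares are on the linear scale and were not computed on the log2 scale of r. On the linear FPKM scale, where the high samples weigh most, r between Cd3e and Lck was 0.985 and r between Cd3e and Cd4 was 0.224.

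**Figure D5:**
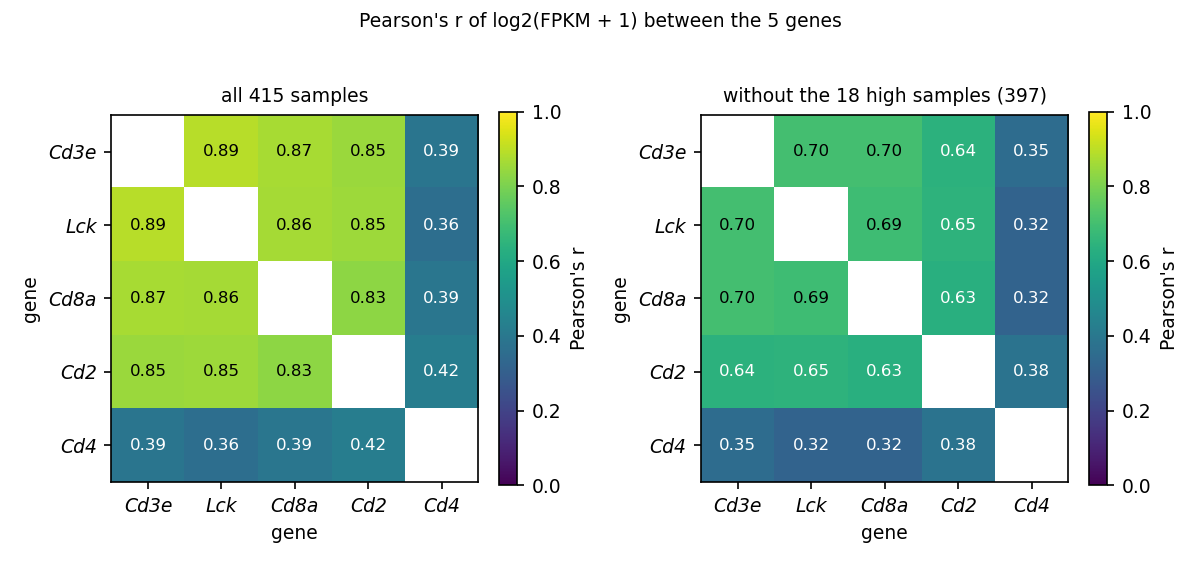
Pearson's r of log2(FPKM + 1) for each pair of the 5 genes over all samples (left) and over those left without the 18 high samples (right), with r as colour and as a printed number. The Cd4 row and column hold the lowest values in both panels, 0.36 to 0.42 on the left and 0.32 to 0.38 on the right.

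Within each block the 6 pairs without Cd4 kept r of at least 0.810. The pairs with Cd4 differed more: r was 0.205 to 0.238 in the lowest title numbers (adjusted permutation p from 0.176 to 0.203), 0.296 to 0.385 in the middle block and 0.507 to 0.545 in the last. In the first of these, which holds 2 of the high samples, r of the 6 pairs without Cd4 ran from 0.810 to 0.929 and depended on few samples: without the 2 farthest it ran from 0.549 for Cd8a with Lck to 0.718 for Cd3e with Lck. For the pairs with Cd4 it was then 0.0019 to 0.184. Whether r differs between blocks was not tested. Between samples of the same title number, the differences also moved together, with r of 0.873 to 0.908 for the 6 pairs and 0.412 to 0.456 for those with Cd4 (1 pair for each of 89 numbers).

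Among all genes, the members were among the closest to each other, except Cd4. Ranked by rho with Cd3e among 16130 other genes, Cd8a was number 4, Lck number 5, Cd2 number 21 and Cd4 number 482. With Cd2, the order was Cd3e at 3, Cd8a at 11, Lck at 15 and Cd4 at 467. With Lck it was Cd3e at 4, Cd8a at 14, Cd2 at 37 and Cd4 at 761, and with Cd8a it was Cd3e at 8, Lck at 17, Cd2 at 41 and Cd4 at 564. In the list for Cd4, the other members stood between number 872 for Cd2 and 1330 for Lck. The gene most like Cd3e was ENSRNOG00000003298 (rho = 0.727 over all samples), and that most like Cd4 was ENSRNOG00000018414 (rho = 0.849); the files give no symbols for either. A rho above 0.5 was found for 0.775% of these genes with Cd3e, 0.887% with Cd8a, 0.843% with Cd2, 0.769% with Lck and 2.22% with Cd4.

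A limma fit of every gene on Cd3e gave the slopes. In this fit 30.8% of 16130 genes rose with Cd3e, and so did all 4 other members. Per unit of Cd3e on the log2(FPKM + 1) scale, Cd8a rose by 0.87 (SE 0.024), Cd2 by 0.74 (SE 0.023), Lck by 0.70 (SE 0.017) and Cd4 by 0.09 (SE 0.0099). By p-value, Lck was number 2 of all genes (adjusted p = 3.93e-142), Cd8a number 20, Cd2 number 32 and Cd4 number 1340 (adjusted p = 2.65e-15). The slopes restate the correlations on another scale. Without the 18 samples 13.3% of genes rose with Cd3e. The slopes were then 0.78 (SE 0.040) for Cd8a, 0.62 (SE 0.037) for Cd2, 0.51 (SE 0.026) for Lck and 0.12 (SE 0.016) for Cd4. All 4 remained called, and in the first block Cd4 was not (slope 0.039, SE 0.030, adjusted p = 0.526). In the fit on Cd4, 26.2% of genes rose with it, among them all 4 other members.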

How the data were processed

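Trizol served to extract RNA from snap-frozen adipose tissue, which was read as single-end Illumina libraries, per the labels' protocols. The submitters' processing notes name STAR, Picard, featureCounts and DESeq2, with no role or version; the genome build and annotation are not given in the sources used here. The deposited table held FPKM values for 18358 genes in 415 samples. Each value was a whole number of reads over the gene's length and 1 factor of the sample, a median-of-ratios size factor scaled by the geometric mean of totals (largest relative difference 2.22e-15), so that samples were already scaled to each other. Whole reads came out for 100% of values within 0.001. Reads per sample set the precision, and intervals and floors cover counting error only.

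Values were analysed as log2(FPKM + 1), which understates changes of low genes. The 16131 genes with FPKM above 1 in at least 20% of samples entered the tests. Models were fitted by limma (lmFit, eBayes, version 3.58.1, R 4.3.3) with Benjamini-Hochberg adjustment over the whole table, and were also tested on simulated data. Correlations over the 415 samples had two-sided and resemblance over the 105 same-number pairs (186 samples, 318 title numbers in all) one-sided permutation tests with 100000 resamples. Blocks of title numbers held 39, 232 and 144 samples, and 397 samples were left without the 18 high ones. Median absolute deviations were multiplied by 1.4826. Python 3.11.15, numpy 2.4.6, scipy 1.17.1 and pandas 2.3.3 were used.

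The members and lists were chosen with earlier results of these data known. The rule for named genes took the 5 members and the genes most like each; since the identifiers carry no symbols, only 2 of those are printed, and 0 identifiers matched the table of gene names. Lists of other T cell, natural killer, B cell, plasma cell, lymph node, macrophage, dendritic, adipocyte, endothelial and thymus genes were for that reason not used. Alternatives were a pseudocount of 0.1, other bounds for high samples, log2 reads or a spline (5 degrees of freedom) of the title number, 1 sample per title number, values within blocks, leaving out the sample high in all 5 genes and, chosen after seeing the data, leaving out the 18 high samples, voom on the recovered reads and the linear scale.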

Additional observations from a re-analysis of the deposited data

How the results depend on the processing

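Under the alternatives, 89.6% of the values were classed as unchanged, by a rule that depended on the kind of value. Correlations, resemblances, trends and slopes had to keep their direction and side of the threshold. F values have no direction and had to keep their side only. Counts and mean levels have no threshold and were compared by size. The percentage includes values that passed under neither setting, so that it is no share of calls that held. No paired analysis was possible because the labels give 1 group, so that no groups can be paired; the differences between samples of 1 title number are a correlation within that group. Within the first block, r with Cd4 no longer passed (0.214 for Cd3e, 0.238 for Cd8a, 0.205 for Cd2, 0.236 for Lck), and neither did the slope of Cd4 on Cd3e (0.039). The relation of Cd4 to depth did not pass in the first (r = -0.131) and last block (r = -0.167). Values that changed sign did not pass the test under either setting: depth with Cd3e in the middle block (-0.000763) and with Cd8a there (-0.0193) and without the 18 samples (-0.00493); resemblance of Cd2 with a pseudocount of 0.1 (0.0188), with the spline (0.0081) and without the 18 samples (0.0830), and without them of Cd8a (0.0273) and Lck (0.162). Trends within a block are slopes per full range of the title number rank over all samples, of which the blocks span 0.091, 0.559 and 0.345, and not the change inside the block. Slopes that changed sign were those of Cd3e in the middle block (0.033) and without the 18 samples (0.038), Cd4 in the first block (0.22), Cd8a in the middle block (0.11) and Lck in the first (-2.40) and last block (-1.04). The slope of Cd4 passed in the last block (-0.52 per full range, or -0.18 over the block, adjusted p = 0.0238 by limma). Lck passed without the 18 samples in trend (0.17), blocks (F = 6.30) and title numbers (F = 1.503). Those samples were picked in part by Lck itself. The resemblance of Cd4 did not pass with log2 reads removed (0.199), with the spline (0.194) or without sample 64024_3 (0.206), nor did its F over title numbers (1.4831, 1.42 and 1.477). The causes were not tested.

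Counts of genes called by limma along the title number fell to 0 in the first block (1526 at an unadjusted p under 0.05) and 1053 in the last, where fewer samples were fitted. Between title numbers the spline left 5746. Co-variation with Cd3e called 1050 genes in the first block, 6388 in the last and 4022 without the 18 samples, against 9862. High samples numbered 10 with 5 scaled deviations. Samples high in all 5 genes numbered 0 with 4 or 5 scaled deviations, and 18 when at least 4 genes sufficed. Depth limits Cd3e and Cd2 most, with median counts of 11 and 13 reads.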
